A study of Mus musculus with 4 samples.

Results

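Regions of open chromatin that lay inside genes and were called in EpCAM-positive but not in EpCAM-negative DN3 thymocytes numbered 666, of 36224 regions in all. They were found by merging the peaks of 4 ATAC-seq libraries wherever they overlapped by at least 1 bp, on chromosomes 1 to 19, X and Y. ATAC-seq uses a transposase to insert adapters into accessible DNA. A merged region was kept when both EpCAM-positive libraries and neither EpCAM-negative library had a peak in it. Its summit, taken from the peak with the highest fold enrichment, had to lie within the span of a protein-coding gene (RefSeq, mouse build mm10) and over 1000 bp from the start and end of every such gene. The cells were DN3 thymocytes from the thymus of WT mice, obtained by flow sorting and then passed over a magnetic separator with a biotin-coupled antibody to the adhesion molecule EpCAM. Cells held by the antibody made up the EpCAM-positive fraction and the unlabelled cells the EpCAM-negative fraction, with 2 libraries each. All 4 libraries shared the genotype, the sort and the tagmentation kit. The labels give no age and do not say whether a fraction's libraries stem from different mice, so their spread, and any p-value from it, may be technical. The regions were thus chosen by their peak calls, and neither their presence in EpCAM-positive lists nor their absence from EpCAM-negative lists is a finding or was tested.

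DN3 thymocytes lack CD4 and CD8, rearrange the T cell receptor beta gene and pass beta-selection. Accessible regions inside genes can be enhancers of the host gene or of a neighbour, silencers, or promoters from which a shorter transcript starts, and many act only in certain cell types. In a bulk library, a region open in few cells cannot be told apart from one that is weakly open in all. Of 8 DN3 marker genes, 6 in each EpCAM-positive library and 7 in each EpCAM-negative library had a peak within 1 kb of a gene end. Rag1, which encodes a subunit of the V(D)J recombinase, was the gene with such a peak in both EpCAM-negative libraries and in neither EpCAM-positive library. Rag2, its partner gene, had one in replicate 1 of each fraction. Ptcra lacked one in EpCAM-positive replicate 1, and Thy1 lacked one in EpCAM-negative replicate 1. These differences were not tested. Of 5 thymic epithelial markers, 1 had a peak in each EpCAM-positive library, which was Epcam itself, and 0 had one in the EpCAM-negative libraries. That count depends on the 1 kb limit, since EpCAM-negative replicate 2 had a peak in an Epcam region with its summit 1084 bp from the gene end. Both EpCAM-positive libraries had peaks in this same region, with 13 and 11 summit fragments against 10 in EpCAM-negative replicate 2. The other Epcam region, 182 bp from a gene end, was called in EpCAM-positive replicate 1 alone. The count of Epcam is thus not a clear contrast between the fractions. Foxn1, Krt5, Krt8 and Krt18, the defining genes of thymic epithelium in that list, had no peak at a gene end in any library. B cell markers with a peak numbered 0 and 0 of 4 in EpCAM-positive libraries, against 0 and 1 in EpCAM-negative libraries. The NK, erythroid, myeloid and mature T cell lists of 4 had 1 gene each in both EpCAM-positive libraries, and 0 or 1 in the EpCAM-negative libraries.

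Some of the regions lay at annotated transcript starts within their host gene, and 6 of these starts are shown because a sequence could be read there. They are the highest-ranked regions whose summit fell in the 300-base RefSeq window around an internal start (build GRCm38.p6), and they were chosen after their values had been seen. The 250 bases before each start are printed 5′ to 3′ on the strand of the gene. Capitals mark the matches to 10 short motifs on either strand, here the GC box GGGCGG, the CCAAT box CCAAT and the RUNX motif TGTGGT.
Zfp661 (chr2:127584678-127584927, minus strand): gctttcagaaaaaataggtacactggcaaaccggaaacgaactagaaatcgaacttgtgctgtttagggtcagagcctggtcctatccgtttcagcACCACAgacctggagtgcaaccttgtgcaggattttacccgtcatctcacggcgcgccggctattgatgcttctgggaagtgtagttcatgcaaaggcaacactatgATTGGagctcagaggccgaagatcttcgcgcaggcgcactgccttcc
Frrs1 (chr3:116861430-116861679, plus strand): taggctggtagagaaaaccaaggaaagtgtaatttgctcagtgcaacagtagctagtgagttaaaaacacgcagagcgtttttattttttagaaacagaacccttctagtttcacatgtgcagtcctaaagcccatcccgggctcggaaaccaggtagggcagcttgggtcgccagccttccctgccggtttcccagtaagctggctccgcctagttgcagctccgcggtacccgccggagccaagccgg
Zmiz1 (chr14:25458935-25459184, plus strand): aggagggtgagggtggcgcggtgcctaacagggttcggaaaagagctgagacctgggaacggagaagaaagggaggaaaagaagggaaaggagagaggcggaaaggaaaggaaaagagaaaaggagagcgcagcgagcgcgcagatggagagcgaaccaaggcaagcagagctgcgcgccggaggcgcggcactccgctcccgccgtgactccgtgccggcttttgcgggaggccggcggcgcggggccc
Ubtf (chr11:102317288-102317537, minus strand): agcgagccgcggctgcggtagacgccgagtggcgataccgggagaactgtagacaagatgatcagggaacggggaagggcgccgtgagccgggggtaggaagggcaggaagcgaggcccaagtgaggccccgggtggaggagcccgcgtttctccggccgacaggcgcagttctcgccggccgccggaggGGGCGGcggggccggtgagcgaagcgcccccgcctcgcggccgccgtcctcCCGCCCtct
Phldb2 (chr16:45844379-45844628, minus strand): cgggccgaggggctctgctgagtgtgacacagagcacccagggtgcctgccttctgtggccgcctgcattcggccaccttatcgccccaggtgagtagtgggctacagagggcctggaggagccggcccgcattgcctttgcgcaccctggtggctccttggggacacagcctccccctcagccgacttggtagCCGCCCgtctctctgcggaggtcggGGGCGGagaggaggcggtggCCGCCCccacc
Cntnap2 (chr6:47244146-47244395, plus strand): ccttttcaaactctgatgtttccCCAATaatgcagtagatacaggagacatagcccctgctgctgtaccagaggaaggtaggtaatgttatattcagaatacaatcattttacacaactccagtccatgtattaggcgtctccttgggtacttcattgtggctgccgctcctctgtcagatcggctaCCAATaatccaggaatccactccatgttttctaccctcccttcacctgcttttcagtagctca

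These windows differed in base composition. Ubtf, which encodes a transcription factor of ribosomal RNA genes, had 75.7% G and C and 40 CpG dinucleotides in its 300 bases, while Cntnap2, a neuronal adhesion gene, had 46.3% and 3. Zmiz1, a coactivator that binds Notch1 in mouse T cells, and Frrs1 had none of the 10 motifs in the printed bases. The pileup at the summit of the Zmiz1 region was 46 fragments in EpCAM-positive replicate 1 and 31 in replicate 2, and a called EpCAM-negative peak lay 47 bp from it. The Ubtf region had 23 and 20 summit fragments, with an EpCAM-negative peak 23 bp away. Zfp661, a zinc-finger gene, had 15 in each library, and its nearest EpCAM-negative peak was 2365 bp away. Phldb2 had 10 and 11 fragments, Cntnap2 had 9 and 11, and Frrs1 had 13 and 10. The nearest EpCAM-negative peak was 33783 bp from the Phldb2 region, 6200 bp from Cntnap2 and 47 bp from Frrs1. So 3 of the 6 regions at the printed starts had an EpCAM-negative peak within 100 bp of the edge of the merged region. Distances from the starts themselves to these peaks were not computed.

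Inside genes, regions restricted to the EpCAM-positive pair made up 666 of 13774 regions, or 4.84% (95% exact Clopper-Pearson interval 4.48 to 5.21), which is the background against which each share of EpCAM-positive-only regions is read below. EpCAM-negative-only regions made up 307 of the same regions, or 2.23%. Regions called in all 4 libraries numbered 5054 (36.7%), and those called in 1 library 4918 (35.7%). Of all 1594 EpCAM-positive-only regions in the genome, the 666 were 41.8%. Another 378 (23.7%) lay within 1 kb of a gene start or end and 550 (34.5%) outside genes. The share of EpCAM-positive-only regions among all regions was 3.31% at gene starts and ends and 4.99% outside genes, against 0.455% and 2.4% for EpCAM-negative-only regions. EpCAM-positive and EpCAM-negative lists also differed in the weakest peaks they held, in background and in length. The lowest −log10 q was 2.07 and 2.02 in EpCAM-positive replicates 1 and 2, against 1.32 and 1.34 in EpCAM-negative ones. EpCAM-negative lists thus reached down to less significant peaks. Per base, the lowest common background came to 0.388 and 0.383 fragments in EpCAM-positive libraries, against 0.29 and 0.286 in EpCAM-negative libraries. The lists held 26029 and 29030 peaks in EpCAM-positive and 24598 and 25924 in EpCAM-negative libraries. With lists of equal length there were 442 EpCAM-positive-only and 398 EpCAM-negative-only regions inside genes, a ratio of 1.11, against 2.17 with the lists as deposited. With a −log10 q of at least 3 in every list they numbered 678 and 293, a ratio of 2.31. In an alternative chosen after seeing the data, the peaks of the 666 regions alone were thinned to the EpCAM-negative background, which kept 638. Other EpCAM-positive peaks were not thinned and call patterns were not formed again. The 307 EpCAM-negative-only regions could therefore not change, and no ratio is read from this alternative. When 1 call from the remaining library sufficed for a fraction, leaving out EpCAM-positive replicate 1 gave a ratio of 4.47, and leaving out its replicate 2 gave 2.56. The ratio was 0.778 without EpCAM-negative replicate 1 and 1.00 without EpCAM-negative replicate 2.

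Most of the regions had low pileups. Summit fragments in EpCAM-positive replicate 1 had a lowest value of 5, a median of 11 and a highest value of 61, and those in replicate 2 had 5, 11 and 60. The fold over local background had a median of 5.56 in replicate 1 and 5.70 in replicate 2, and the −log10 q a median of 6.13 and 6.38. Most of them sat low in their own lists, with median within-list percentiles of 23.1 and 26.2. In 399 regions the peak was among the lowest 20% of at least 1 list, and in 10 it was above the 50th percentile of both. Regions called in all 4 libraries inside genes had median pileups of 24 and 25 in EpCAM-positive replicates 1 and 2, against 21 and 21 in EpCAM-negative ones. Pileups were not scaled between libraries, and the mean lowest common background of EpCAM-positive libraries was 1.34 times that of EpCAM-negative ones. EpCAM-negative-only regions inside genes had medians of 9 and 9 in their own libraries. The median width was 351 bp (240 to 755), close to the 360 bp of all regions inside genes, against 316 bp for EpCAM-negative-only regions, 237 bp for those called in 1 library and 614 bp for those called in all 4.

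The 2 EpCAM-positive libraries gave similar pileups at most of these regions. The pileups differed by at most 1.5-fold at 590 regions and by over 2-fold at 7. Across the 666 regions, Pearson's r of the log2 pileups was 0.795, given as a description, since the regions share the same 2 libraries and both had to call them. The summits of the 2 libraries lay a median of 70 bp apart. At 346 regions both libraries had 10 or more summit fragments, and at 54 both had 20 or more. An EpCAM-negative peak that did not overlap the region lay within 100 bp of 51 regions and within 500 bp of 86. A peak list gives no value where no peak was called, so the EpCAM-negative signal at the regions themselves was not analysed here. The regions next to the calling rule show how near that signal can come. Another 1014 regions inside genes had peaks in the EpCAM-positive pair and in 1 EpCAM-negative library. Their median was 13 summit fragments in the EpCAM-positive and 10 in the EpCAM-negative library that called them, not scaled for the higher EpCAM-positive background. Regions called in 1 EpCAM-positive library alone numbered 2863, with a median of 9.

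**Figure D1:**
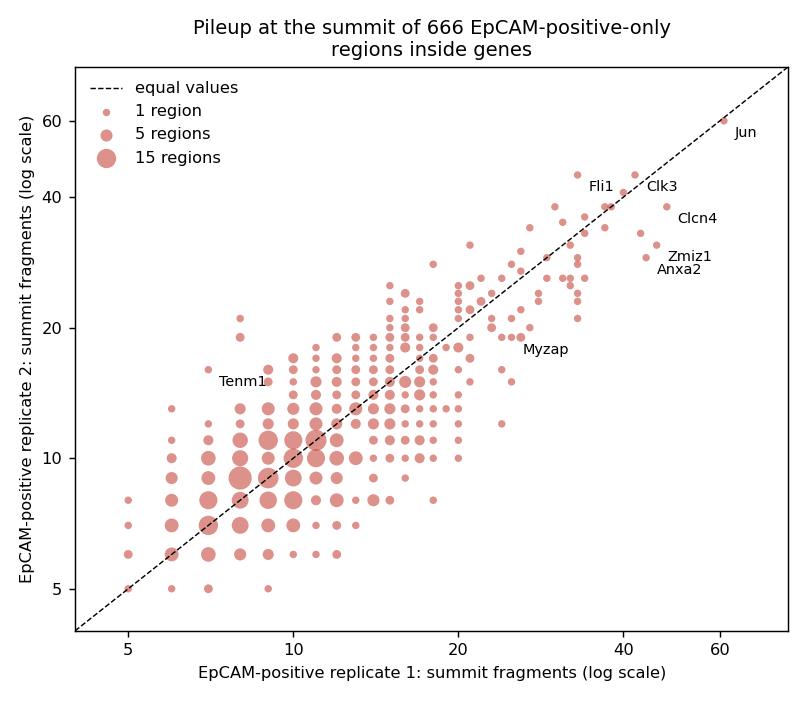
Summit fragments (pileup at the peak summit) of the 666 EpCAM-positive-only regions inside genes, in EpCAM-positive replicate 1 (x axis) and replicate 2 (y axis), both on log scales. Point area grows with the number of regions at the same pair of values and the dashed line marks equal values; most regions lie below 20 fragments in both libraries, and Jun stands highest with 61 and 60.

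The 20 strongest regions, ranked by the lower of their 2 within-list percentiles of −log10 q, lay in genes of diverse function. Myzap, which encodes a cell junction protein known from heart muscle, had the first. It lay at chr9:71543570-71544030 with 25 and 19 summit fragments and folds of 11.8 and 11.7, and no EpCAM-negative peak was closer than 26124 bp. Membrane and cytoskeleton genes were Anxa2, a calcium-dependent membrane-binding annexin, with 44 and 29 fragments at chr9:69458111-69458625, and Coro2a, an actin-binding coronin, with 21 and 31 at chr4:46561278-46561815. Anxa2 was higher in replicate 1 and Coro2a in replicate 2. Tspan2, a tetraspanin, had 27 and 34 fragments and Col24a1, a collagen, 13 and 13.

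Transporter and channel genes among the 20 were Spns2, Clcn4 and Trpm1. Spns2 exports sphingosine-1-phosphate, the lipid that guides lymphocyte egress, and its region at chr11:72485292-72485669 had 21 and 22 fragments. Clcn4, a chloride and proton exchanger, had 48 and 38 at chr7:7299216-7299506, 274 bp from an internal start, with an EpCAM-negative peak 299 bp away. Trpm1, a cation channel of retinal bipolar cells, had 17 and 19. Signalling genes were Il16, which encodes the precursor of a CD4-binding cytokine, Tnik, a kinase that acts with TCF proteins in Wnt signalling, Dapk1, a death-associated kinase, and Cmip, an adaptor known to bind c-Maf. Il16 had 26 and 27 fragments at chr7:83659236-83659511 and Tnik 29 and 29 at chr3:28263828-28264498, where an EpCAM-negative peak lay 143 bp away. Dapk1 had 15 and 14 and Cmip 18 and 20, and both of these genes held 1 further EpCAM-positive-only region. The 4 signalling genes had nearly equal pileups in both libraries.

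Genes of the nucleus and of RNA were Kpna6, an importin that carries proteins into the nucleus, with 16 and 15 fragments, Ddx6, an RNA helicase of messenger RNA decay, with 34 and 26, and Lcorl, a putative transcriptional regulator, with 37 and 34. Wdyhv1, an amidase that acts on N-terminal glutamine, had 38 in each library at chr15:58145288-58145794. The others were Glipr2 (32 and 31), Mthfsd (23 and 21), Stpg1 (17 and 17) and Lhfpl2 (17 and 10). At the other end of the ranking, Kntc1, a component of the mitotic checkpoint, had 5 and 5 fragments, Moxd1, a monooxygenase family member, 6 and 5, and Map3k15, a MAP kinase kinase kinase on chromosome X, 5 and 7. The pileup at Jun, which encodes an AP-1 subunit, was the highest of all 666, and it ranked outside the first 20. Its folds of 2.46 and 2.58 were the lowest of all 666 in both libraries, over local backgrounds of 24.2 and 22.7 fragments.

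EpCAM-positive-only regions lay near a transcript start within a gene at a share below that of all regions inside genes and above that of EpCAM-negative-only regions. RefSeq start windows held 3881 starts that lay inside a gene and over 1 kb from every gene start and end. Of the 666 regions, 52 had their summit within 1 kb of such a start, or 7.81% (95% interval 5.89 to 10.1), against 10.6% (10.1 to 11.1) of all regions inside genes. The count was 4 of 307 for EpCAM-negative-only regions, or 1.30% (0.356 to 3.30). Regions called in all 4 libraries reached 18.5% and those called in 1 library 5.27%. The table of starts covered the host genes of 532 of the 666 regions, and among these the share was 9.77% (7.39 to 12.6), against 1.69% (0.464 to 4.28) of 236 EpCAM-negative-only regions and 13.2% of all covered regions inside genes. With 1 library left out, the EpCAM-positive-only share was 6.92% to 9.43% and the EpCAM-negative-only share 2.95% to 3.98%, so the contrast was smaller in each case. Regions are not replicates and their calls chose them, so the shares were not tested.

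Regions outside the 666 had the same order, but they come from the same peak lists and are not independent support. The exact test over libraries cannot go below 0.333. Among regions called in 1 library, 6.93% and 5.60% of those of EpCAM-positive replicates 1 and 2 lay within 1 kb of an internal start, against 3.97% and 4.09% of those of EpCAM-negative replicates 1 and 2. The means were 6.26% ± 0.945 and 4.03% ± 0.0819 (SD, n = 2 per fraction), a difference of 2.23 points (two-sided exact permutation p = 0.333, the smallest possible with 2 libraries against 2). With the 666 regions left out, a peak lay at 30.6% and 30.6% of internal starts in the EpCAM-positive libraries, against 28.8% and 28.5% in the EpCAM-negative libraries. That was a difference of 1.97 points (exact permutation p = 0.333). The other annotated starts were alike in this, at 47.3% and 47.7% in EpCAM-positive and 45.5% and 44.7% in EpCAM-negative libraries. The ratio of internal to other starts was thus 0.646 and 0.643 in EpCAM-positive libraries, against 0.632 and 0.637 in EpCAM-negative libraries (exact permutation p = 0.333). List lengths of EpCAM-positive replicate 1 (26029 peaks) and EpCAM-negative replicate 2 (25924) were nearly equal, and their shares of 1-library regions were 6.93% and 4.09%. These 2 lists still differed in background (0.388 against 0.286 fragments) and in lowest −log10 q (2.07 against 1.34). The part of list length, background or lowest −log10 q in these shares was not tested.

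**Figure D2:**
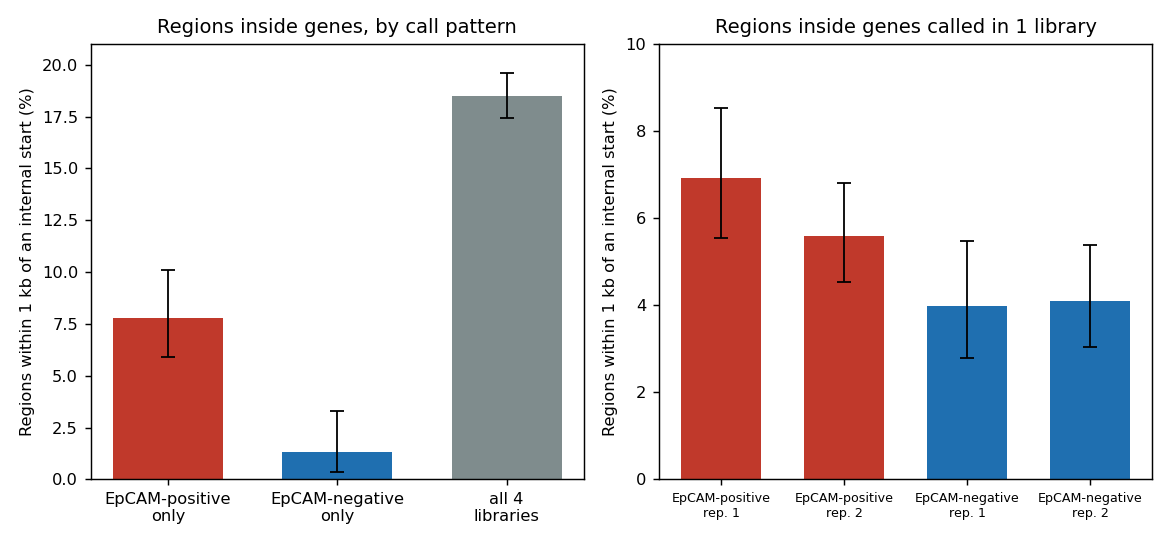
Share of regions inside genes with a summit within 1 kb of an internal transcript start (y axes, %), with 95% exact binomial intervals that cover counting error only. The left panel gives EpCAM-positive-only (7.81%), EpCAM-negative-only (1.30%) and all-4-library regions (18.5%), and the right panel regions called in 1 library. There both EpCAM-positive libraries lie above both EpCAM-negative ones, though the interval of EpCAM-positive replicate 2 overlaps both of theirs.

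The 52 regions at internal starts had median pileups of 13 and 11 in the EpCAM-positive libraries, against 10 and 11 for the other 614 regions. An EpCAM-negative peak lay within 500 bp of 12 of the 52 (23.1%) and of 74 of the 614 (12.1%). The strongest by rank after Clcn4 and Lcorl was in Slc4a2, an anion exchanger, with 31 and 26 fragments at chr5:24425290-24425880. Mllt10, a chromatin regulator that is a fusion partner in leukaemia, had 33 and 28, with an EpCAM-negative peak 179 bp away. Itpa, which clears inosine triphosphate, had 21 and 22, and Acp5, an acid phosphatase of osteoclasts, 17 and 14. Clk3, a kinase of splicing factors, had 42 and 45, with an EpCAM-negative peak 24 bp away. Cmklr1, the chemerin receptor, had 18 and 17 at chr5:113643401-113643652, with the nearest EpCAM-negative peak 6864 bp off. Dnmt3a, a DNA methyltransferase, had 15 and 12, 710 bp from a start. Dock9, an activator of Cdc42, had 10 and 11, 182 bp from one. The genes of this paragraph were named after their values had been seen.

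The start windows that these regions overlapped were rich in G and C. Of the regions, 34 overlapped 35 windows of 34 genes, with a median GC content of 61.3%, against 62.3% for 1063 internal starts in regions called in all 4 libraries and 51.3% for 2520 internal starts in no region. The median number of CpG dinucleotides was 17, against 21 and 5 in those sets. The GC box GGGCGG was present in 16 of the 35 windows (45.7%), against 38.5% of all 3881 internal starts and 65.4% of those in regions called in all 4 libraries. CCAAT was present in 14 (40%, against 34.7% of all internal starts and 35.9% of those in regions called in all 4 libraries) and the E-box CACGTG in 6 (17.1%, against 6.29% and 9.78% in these sets). The RUNX motif TGTGGT was in 6 (17.1%, against 16.2% and 12.4%) and the ETS motif CCGGAAG in 4 (11.4%, against 6.91% and 16.7%). The AP-1 motif TGANTCA was in 1 (2.86%, against 7.73% and 4.52%), the TATA box TATAAA in 2 (5.71%, against 10.9% and 4.42%) and the TCF motif CTTTGA in 3 (8.57%, against 14.5% and 11.3%). The GATA motif AGATAA was in 3 (8.57%, against 10.2% and 5.74%) and the E-box CAGCTG in 6 (17.1%, against 18.6% and 14.7%). Both strands were searched, and matches are a description of letters in these windows.

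Along their genes, the regions were spread much like all regions inside genes. Of the 532 regions in a gene with a known strand, 23.5% lay in the first 20% of the gene in the direction of transcription and 16.9% in the last 20%, against 23.8% and 16.5% of all regions inside genes. For regions called in all 4 libraries the shares were 27.8% and 14.0%, and for EpCAM-negative-only regions 19.1% and 20.3%. The intervals of EpCAM-positive-only and EpCAM-negative-only regions overlapped in each of the 5 bins, and these shares were not tested. The median length of the host gene was 83721 bp, against 108933 bp for EpCAM-negative-only regions and 76206.5 bp for regions called in all 4 libraries. Genes over 100 kb held 43.1% of the regions, close to the 44.2% of all regions inside genes. A region called in all 4 libraries had its summit within 10 kb of 213 of the 666 (32.0%, interval 28.5 to 35.7), against 29.0% of EpCAM-negative-only regions. By chromosome, the share of regions inside genes that were EpCAM-positive-only was lowest on chromosome 9 (2.89%) and highest on chromosome 8 (6.47%), and 8 of 244 on chromosome X (3.28%).

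**Figure D3:**
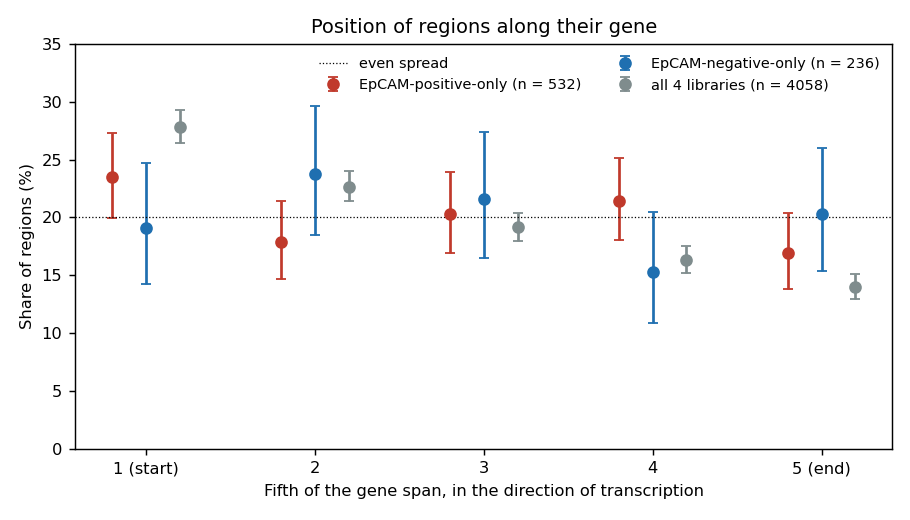
Share of regions (y axis, %) in each of 5 equal bins of the gene span, from the start to the end of transcription (x axis), for EpCAM-positive-only, EpCAM-negative-only and all-4-library regions inside genes. Error bars are 95% exact binomial intervals and the dotted line marks an even spread of 20%; all-4-library regions fall from 27.8% in the first bin to 14.0% in the last, while EpCAM-positive-only regions go no higher than 23.5% and no lower than 16.9%.

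The 666 regions lay in 615 host genes, of which 37 held 2 and 7 held 3. The 7 genes with 3 were Abr, Fancc, Itpr1, Lrrc1, Ppm1h, Sgip1 and Tenm1, and none of them held an EpCAM-negative-only region. These genes were picked for their EpCAM-positive-only regions and held 5 to 15 regions each. Since EpCAM-negative-only regions were 2.23% of all regions inside genes, their absence from so few regions is not a finding. Abr, a regulator of Rac and Cdc42, held 14 regions inside its span of 206593 bp, and 4 of those were shared by all 4 libraries. Its EpCAM-positive-only regions had 16 and 15, 14 and 13, and 9 and 7 summit fragments. Ppm1h, a protein phosphatase, held 15 regions, and 8 of those were shared by all 4 libraries. Its EpCAM-positive-only regions had 24 and 19, 12 and 12, and 8 and 13 fragments, so 1 of the 3 was clearly stronger than the others. Lrrc1, a scaffold protein, had 17 and 14, 12 and 11, and 11 and 11 fragments.

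Fancc, a Fanconi anaemia gene of DNA crosslink repair, had 13 and 12, 7 and 7, and 10 and 12 fragments at its 3 regions. Itpr1, which encodes a calcium channel opened by inositol trisphosphate and active in lymphocyte receptor signalling, had 9 and 11, 8 and 7, and 7 and 7. Sgip1, an endocytic protein of neurons, and Tenm1, a neuronal teneurin on chromosome X, held no region called in all 4 libraries. Sgip1 had 11 and 11, 7 and 7, and 12 and 10 fragments, and Tenm1 had 8 and 8, 11 and 10, and 7 and 16. The last Tenm1 region was one of the 7 whose pileups differed by over 2-fold between the libraries.

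**Figure D4:**
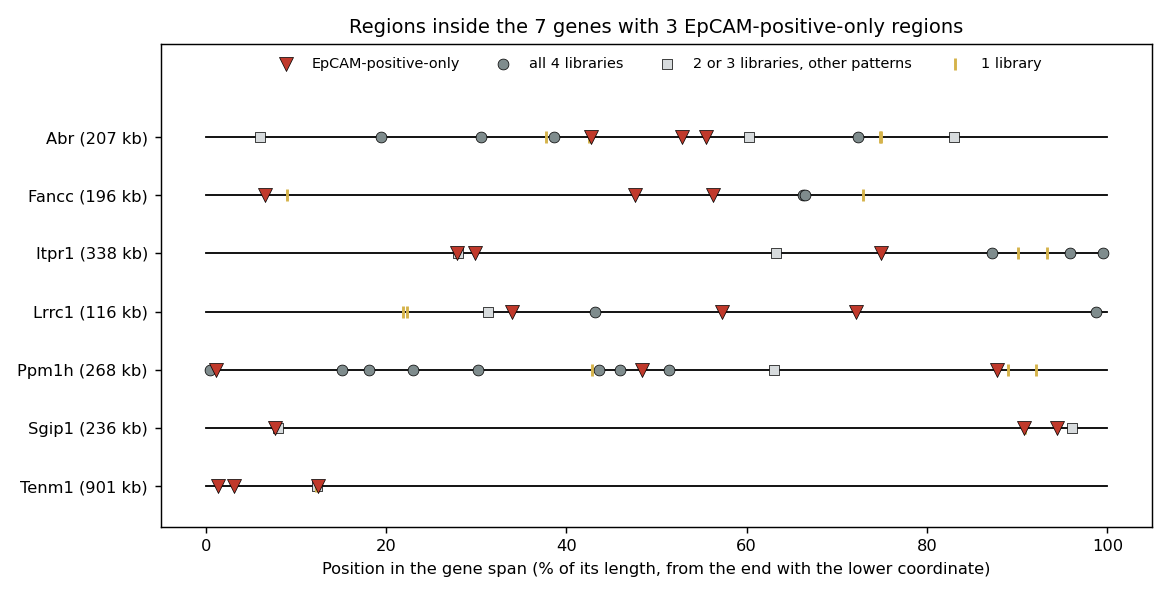
Position of every region inside the 7 genes that held 3 EpCAM-positive-only regions, as a percentage of the gene span counted from the end with the lower coordinate (x axis), with the span in brackets. Triangles are EpCAM-positive-only regions, circles regions called in all 4 libraries, squares other regions called in 2 or 3 libraries and bars regions called in 1; in Sgip1 and Tenm1 no circle is present.

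Lists of genes of T cell development and signalling held EpCAM-positive-only regions at close to the rate of all regions inside genes. Of 19 lists, 16 held at least 1 of the 666 regions, with 61 regions in all, and the 95% interval of every list included 4.84%. The T lineage transcription factors had 10 of 162 regions (6.17%), with 7 EpCAM-negative-only. Bach2, a repressor of effector programmes, had 2, with 20 and 25 fragments at chr4:32248323-32248932 and 9 and 7 at chr4:32387950-32388400, the weaker of which lay 3 bp from an EpCAM-negative peak. Fli1, an ETS factor, had the strongest of the list, with 33 and 45 at chr9:32541281-32541630. Zbtb7b, the CD4 lineage factor, had 16 and 24. Runx1, needed for early T cell development, had 13 and 14, and Runx3, the CD8 lineage factor, 15 and 11. Elf1 (10 and 11), Ikzf2 (8 and 11), Tcf12, an E protein (8 and 6), and Zfpm1, a GATA cofactor (10 and 17), had weaker ones. Replicate 2 was higher than replicate 1 at 7 of these 10 regions.

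The signalling lists were read in order from receptor to nucleus. Notch pathway genes had 3 of 64 regions (4.69%), with 3 EpCAM-negative-only. Maml3, a coactivator of the Notch complex, had 2, with 37 and 38 fragments at chr3:52103368-52103777 and 15 and 19 at chr3:52066481-52066797, and an EpCAM-negative peak lay 28 bp from the stronger. Numbl, a Notch antagonist family member, had 18 and 20. Pre-TCR and TCR signalling genes had 6 of 173 (3.47%), with 2 EpCAM-negative-only. Ptprc, the CD45 phosphatase that activates Src kinases, had 11 and 15, Fyn, such a kinase, 12 and 13, Nck2, an adaptor, 11 and 13, and Nfatc2, a calcium-dependent transcription factor, 11 and 12. Fyb, an adaptor of integrin activation, had 6 and 7, and Tnik was the last of the 6. Cytokine receptor and STAT genes had 0 of 68, for which the upper limit of the interval was 5.28%, and also 0 EpCAM-negative-only.

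The PI3K and mTOR list had 7 of 114 regions (6.14%), with 2 EpCAM-negative-only. Foxo1, a transcription factor that PI3K signalling holds out of the nucleus, had 11 and 11 fragments, Mtor, the kinase itself, 7 and 8, and Prkcb, a protein kinase C, 26 and 19 at one region and 11 and 9 at another. The others were in Inpp4b, a phosphatase of phosphoinositides (9 and 8), Pik3ap1, an adaptor (7 and 7), and Prkcz, an atypical protein kinase C (10 and 11). Wnt pathway genes had the highest share, 5 of 57 (8.77%, interval 2.91 to 19.3), with 4 EpCAM-negative-only. Tcf7l2, a nuclear effector of beta-catenin, had 12 and 12, Fzd5, a receptor, 17 and 16, Tle4, a corepressor, 7 and 6, and Btrc, the ubiquitin ligase subunit that removes beta-catenin, 6 and 6, with Tnik as the fifth. Of NF-kappaB and AP-1 genes, 2 of 35 regions (5.71%) were EpCAM-positive-only, in Jun and in Nfkbiz, a nuclear regulator of NF-kappaB, which had 33 and 23.

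Adhesion and migration genes had 4 of 73 (5.48%), with 2 EpCAM-negative-only. Itgb3, an integrin beta chain, had 28 and 24, Itgae, the CD103 integrin that binds E-cadherin, 12 and 11, Sema4d, a semaphorin of lymphocytes, 13 and 18, and Plxnc1, a semaphorin receptor, 11 and 12.

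Chromatin and DNA modifying enzymes had 8 of 183 (4.37%), with 9 EpCAM-negative-only. Besides Dnmt3a, they lay in Arid1a, a subunit of the BAF remodelling complex (9 and 9), Chd2 (12 and 10) and Chd9 (6 and 6), chromodomain helicases, Dot1l, the H3K79 methyltransferase (10 and 12), Hdac9, a deacetylase (12 and 12), and Kdm2b (10 and 11) and Kdm4b (11 and 12), histone demethylases. Both libraries had 6 to 15 fragments at all 8. Apoptosis genes had 3 of 37 (8.11%), with 0 EpCAM-negative-only. Bbc3, which encodes the p53 target PUMA, had 43 and 33, Trp73, a p53 relative, 11 and 15, and Cflar, an inhibitor of caspase-8, 8 and 9.

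Stage-specific lists held at most 1 region each, with 2 EpCAM-negative-only regions each in the double-positive, progenitor and gamma-delta lists and 0 in the V(D)J and cell cycle lists. Polm, a polymerase of end joining (V(D)J list, 1 of 14), had 11 and 13 fragments. Arpp21, a gene of the double-positive stage list (1 of 40), had 14 and 15. Tal1, a progenitor factor that T cell commitment silences (1 of 47), had 10 and 9. Tbx21, the T-bet gene (gamma-delta and innate list, 1 of 27), had 12 and 10, and Ccnd3, the D cyclin of beta-selection (cell cycle list, 1 of 36), 11 and 9. Of lists of other cell types, thymic epithelial genes had 0 of 12, B cell genes 0 of 18 and myeloid and dendritic genes 1 of 20, in Clec9a, a dendritic cell receptor (7 and 10), with 0, 0 and 2 EpCAM-negative-only. Neuronal and synaptic genes had 8 of 153 (5.23%), with 3 EpCAM-negative-only, and the 8 lay in Ank2, Auts2, Celsr1, Cntnap2, Kcnq1 and Sgip1. Those 8 ranged over 6 to 14 fragments.

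**Figure D5:**
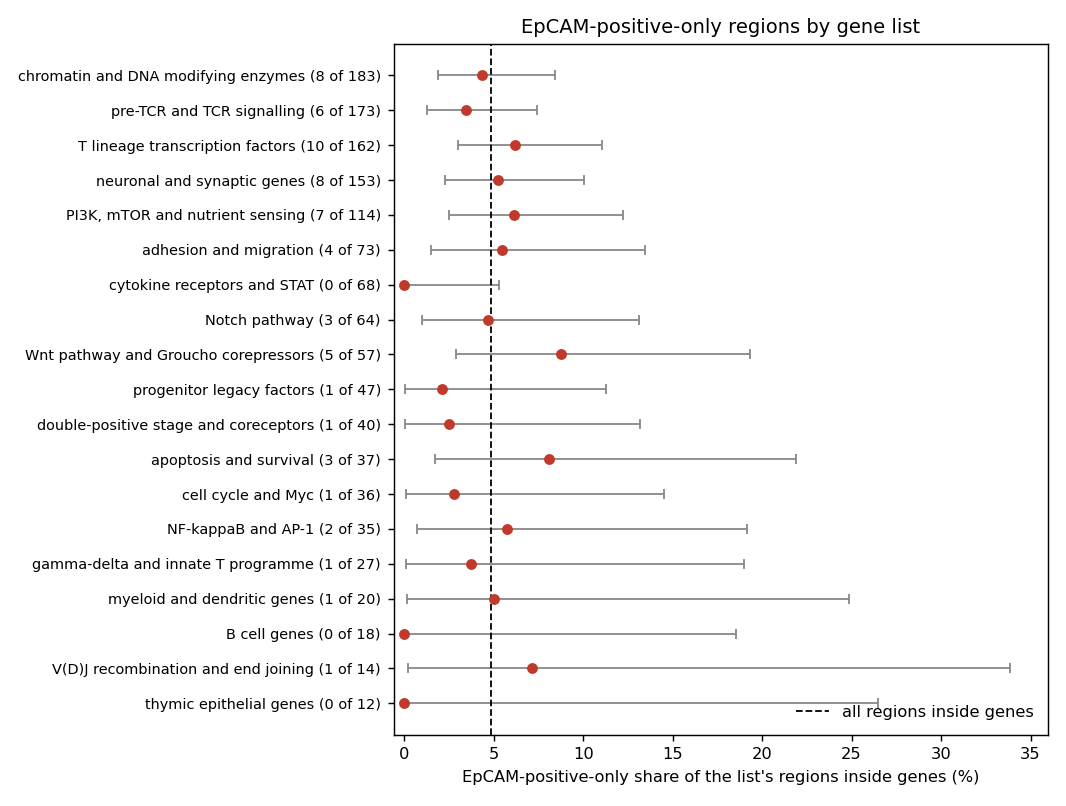
Share of a list's regions inside genes that were EpCAM-positive-only (x axis, %), for 19 gene lists ordered by their number of regions, with the counts in brackets. Bars are 95% exact binomial intervals, which cover counting error only, and the dashed line is the 4.84% of all regions inside genes; every bar crosses it.

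Elsewhere in the host genes, open regions shared by all 4 libraries were compared between the fractions, with a test that cannot go below 0.333. Of the 615 host genes, 290 (47.2%) had a region called in all 4 libraries at a gene end, near the 45.4% of all genes with a region inside. For each library, the median pileup of such end regions of host genes was divided by that of end regions of other genes. The ratio was 0.917 and 0.976 in EpCAM-positive replicates 1 and 2, against 0.971 and 0.938 in EpCAM-negative ones, or 0.946 ± 0.0421 and 0.954 ± 0.0234 (SD, n = 2 per fraction, 304 host regions). The difference was -0.0076 (two-sided exact permutation p = 1, adjusted p = 1 over 2 comparisons), and its sign changed with the measure. For 741 shared regions inside the host genes, the ratio was 1.0 in both EpCAM-positive and 0.952 in both EpCAM-negative libraries. That difference of 0.0476 (exact permutation p = 0.333, adjusted p = 0.667) rested on medians of whole fragments. In the host genes these were 24 and 25 in EpCAM-positive and 20 and 20 in EpCAM-negative libraries. In other genes they were 24 and 25 against 21 and 21, so a step of 1 fragment in the EpCAM-negative libraries made the difference. It was -0.0133 when log2 pileups were averaged.

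The limits of the rule left out regions with similar values. Just inside the distance limit lay the regions in Gm12447 (1002 bp from a gene end, 9 and 12 fragments), Zbtb7b (1016 bp) and Baz2a, a chromatin remodelling subunit (1030 bp, 33 and 29). Just outside it lay those in Cacna1b (997 bp, 10 and 10), Gsc (994 bp, 11 and 15) and Abca1 (993 bp, 16 and 12). Epcam, which encodes the antigen of the magnetic separation, held no EpCAM-positive-only region inside it. Its region at chr17:87636682-87637250 reached 13 and 11 fragments in EpCAM-positive replicates 1 and 2, and a peak of 10 fragments in EpCAM-negative replicate 2 kept it out. Regions overlapped the hairpins of 2 microRNAs, Mir7655 in Mllt10 and Mir7007 in Cpa3.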

How the data were processed

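ATAC-seq of 4 libraries was read from 1 deposited narrow peak list per library. Each list gives a display score, a fold enrichment over background (a ratio), and the −log10 of the p-value and q-value, as deposited by the authors. Per the submitters' processing notes, the tools included Bowtie2, MACS3, Trimmomatic, Trim Galore, FastQC, Picard, SAMtools, deepTools and bedtools, with the builds mm10 and GRCm38. What each tool did, with which version and settings, how duplicates were handled and whether reads were shifted was not stated in the sources read here. Read depth is therefore unknown. Per the labels, each fraction had 2 libraries.

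Summit fragments and local background were computed by inverting the deposited fold and −log10 p (Poisson, 1 added to both terms of the fold, tolerance 0.01), solvable for 99.988% to 99.996% of peaks in each list. This inversion was tested on simulated peaks. Coordinates are 1-based mm10. Gene spans came from RefSeq GRCm38.p6 (21887 protein-coding genes), and starts and strand from its promoter table (17492 genes). Exons, introns and UTRs were not annotated, and the sequence of the regions was not searched. Intervals are 95% Clopper-Pearson and cover counting error only. Tests are exact permutations over the 4 libraries.

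The regions and gene lists were chosen with earlier results of these data known. Genes named are those of the 20 highest and 3 lowest ranks, of 3 or more regions, of the lists, next to the distance limit, and Epcam. One gene list is not reported here. Names added after values were seen are stated as such. Alternatives tried were merging, summit choice, distance, gene set, −log10 q minimum, list length, strict absence (no EpCAM-negative peak within 500 bp), thinning, another summary of pileups, the replicate block and leaving out each library. Python 3.11.15, pandas 2.3.3, numpy 2.4.6, scipy 1.17.1 and matplotlib 3.10.9 were used.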

Additional observations from a re-analysis of the deposited data

How the results depend on the processing

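The number of EpCAM-positive-only regions inside genes stayed between 580 and 678 under every alternative that kept both libraries of each fraction, except lists of equal length, which gave 442 regions or 3.59% of regions inside genes. With no EpCAM-negative peak allowed within 500 bp the share was 4.21%. Thinning to the EpCAM-negative background, added after seeing the data, was applied to the 666 regions alone and kept 638. Leaving out a library lets a single call stand for its fraction. By that construction the number was 1166 to 2471, the share 8.97% to 19.2% and the median width 228 to 367 bp. The share within 10 kb of a region called in all remaining libraries was 33.7% to 35.8%. That reference set is looser than regions called in all 4 libraries. The share at internal starts, also added after seeing the data, was 6.41% to 9.43% over all alternatives, and that of EpCAM-negative-only regions 1.01% to 3.98%. The difference in relative pileup at host-gene ends changed sign to 0.0109 with the deposited fold and 0.00336 with log2 means, and was -0.0374 to 0.0221 with 1 library left out. Inside host genes it changed sign to -0.00719 with the fold and -0.0133 with log2 means. The cause was not tested. With the replicate number as a block the differences were -0.0076 (exact permutation p = 1) and 0.0476 (p = 0.5). The labels do not pair the libraries, and deviations of same-numbered libraries correlated at 0.16 over 16758 shared regions. With 2 libraries a fraction no test can pass, the depth in reads is unknown, and weak regions near the calling limit can move between patterns.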
